A study of Mus musculus with 9 samples.

Results

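The 8 genes followed here were Serpina3n, A2m, Lcn2, Steap4, Cp, Trf, Cd44 and Cebpd, which are grouped as acute phase genes of reactive glia. They are 8 of the 26683 genes in the count table and were taken by symbol, and all 8 had enough counts to be tested. They had been picked from measured values of these libraries in all 3 groups, including the behaviour of Lcn2 and Steap4 under the hydrogel, so their own differences are given as a description. The data are bulk RNA sequencing counts from 9 mouse retina libraries collected at postnatal day 17. In 3 Gel libraries the mice had oxygen-induced retinopathy (OIR), where a period in high oxygen stops the growth of retinal vessels and abnormal ones form afterwards in room air, and received at postnatal day 15 a hydrogel labelled PCC1/PHCF in the vitreous. In 3 PBS libraries OIR mice received saline on the same day, and 3 Normoxic libraries came from mice in room air, for which the labels give no injection. No group received a gel lacking PCC1, so PCC1 and its carrier cannot be told apart in Gel, nor OIR and injection in PBS against Normoxic. Strain, genotype and the number of retinas per library are not given in the sources used here, and nothing says that replicates were separate animals, so p-values measure only the spread between these samples.

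The acute phase response is a programme of secreted proteins known best from the liver, where interleukin 6 family cytokines act through the receptor subunit gp130 and STAT3, together with C/EBP factors and NF-kB. Reactive glia of the brain and retina make several of the same proteins. Müller glia span the retina and astrocytes line its inner vessels, and both are known to turn on such genes after injury or ischaemia. In these bulk libraries a change in the number of such cells and a change in RNA per cell cannot be told apart.

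Promoter sequences are shown for Serpina3n, Lcn2 and Steap4, because Lcn2 and Steap4 stood apart from Serpina3n in the Gel libraries. They are the 250 bases before the RefSeq gene start (build GRCm38.p6, another build than the GRCm39 of the counts), printed 5′ to 3′ on the gene's strand. The bases just after the start were found in an annotated transcript of the gene for Lcn2 and Steap4, but not for Serpina3n. The start used for Serpina3n was therefore not matched to a transcript. The position is chr12:104406458-104406707 on the plus strand for Serpina3n, chr2:32387740-32387989 on the minus strand for Lcn2 and chr5:7960222-7960471 on the plus strand for Steap4. Capitals mark matches to 3 motifs searched on both strands: TTCNNNGAA for STAT factors, TTNNGNAA for C/EBP factors and for NF-kB GGG and CC with any 5 bases between them.
Serpina3n: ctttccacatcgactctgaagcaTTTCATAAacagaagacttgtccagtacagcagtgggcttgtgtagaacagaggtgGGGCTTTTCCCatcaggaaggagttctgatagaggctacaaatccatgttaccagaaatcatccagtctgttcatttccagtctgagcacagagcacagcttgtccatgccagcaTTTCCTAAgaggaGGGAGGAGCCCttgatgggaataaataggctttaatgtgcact
Lcn2: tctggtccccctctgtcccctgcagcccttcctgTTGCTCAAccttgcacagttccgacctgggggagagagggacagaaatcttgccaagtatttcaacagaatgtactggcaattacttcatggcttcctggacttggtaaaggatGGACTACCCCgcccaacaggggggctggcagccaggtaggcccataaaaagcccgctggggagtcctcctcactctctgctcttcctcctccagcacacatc
Steap4: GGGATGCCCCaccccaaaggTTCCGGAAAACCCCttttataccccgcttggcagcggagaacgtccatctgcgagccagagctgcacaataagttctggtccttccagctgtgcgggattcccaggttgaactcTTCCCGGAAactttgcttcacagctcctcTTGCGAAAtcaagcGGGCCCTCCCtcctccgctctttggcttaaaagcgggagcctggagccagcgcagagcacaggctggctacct
Of these 3 windows, that of Steap4 held a STAT match, TTCCCGGAA, 116 to 108 bases before the start, and the other 2 held none. The C/EBP motif matched at 1 place for Lcn2 and at 2 each for Serpina3n and Steap4, and the NF-kB motif at 1 place for Lcn2 and at 3 for Steap4. The 4 NF-kB matches of Serpina3n are 2 pairs that overlap by all but 1 base, and 1 C/EBP match of Steap4 overlaps an NF-kB match. Among 32851 promoter windows of the same length, 7.02% held the STAT motif, 36.85% the C/EBP motif and 45.8% the NF-kB motif. RefSeq windows were matched for 5 of the 8 genes, and those of Cp and Cd44 held no STAT match. A match is a stretch of letters and was not tested as a binding site.

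Library totals ran from 29324142 to 35663470 counts; levels are counts scaled to the library total (CPM). PBS 3 stood apart from the other libraries. It lay at 58.3 on the first principal component, against -13.3 to 21.5 in the other injected libraries and -43.8 to -35.8 in Normoxic. Without it the log2 value of Gel over PBS was -1.91 for Serpina3n, -1.52 for Cebpd, 1.16 for Lcn2 and 2.59 for Steap4. Its ribosomal protein genes took 2.68% of counts, against 1.08% to 1.66% in the other 8. PBS 1 was the highest PBS library for 7 of the 8 genes described here, all but Steap4.

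All 8 genes were higher in every PBS library than in every Normoxic library, and in every Gel library than in every Normoxic library. Groups without overlap in that direction were seen for 14.9% of all tested genes in PBS versus Normoxic, where 14.1% did not overlap the other way, and for 11.1% in Gel versus Normoxic. With the edgeR quasi-likelihood test at an adjusted p under 0.05, 7 of 8 were called higher in PBS versus Normoxic (all but Steap4), where 6.34% of all genes were called, 4.31% higher and 2.03% lower. In Gel versus Normoxic 6 of 8 were called higher (all but Cp and Cd44), against 1.12% of all genes. Some of these calls rest on single libraries. The Cd44 call in PBS versus Normoxic ended without Gel 2, Gel 3, PBS 1 or any 1 Normoxic library. It also ended with limma-voom and with only the 2 groups compared. In Gel versus Normoxic the Steap4 call ended without Normoxic 2. The Trf call there ended without any 1 Gel library, Normoxic 2 or Normoxic 3, and the Cebpd call without Gel 3 or any 1 Normoxic library. In Gel versus PBS edgeR called 0 of 8 and 0% of all 17362 tested genes. An unadjusted edgeR p under 0.05 was reached by 961 genes there, 3711 in PBS versus Normoxic and 2298 in Gel versus Normoxic. For Gel versus PBS, DESeq2 called 64 genes, among them Lcn2 and Steap4 as higher and Serpina3n and Cebpd as lower, and limma-voom called 0. Without the count filter, edgeR called Steap4 as higher and Serpina3n as lower in Gel versus PBS. The median log2 fold change of the 8 was 2.12 for PBS over Normoxic, -0.46 for Gel over PBS and 2.49 for Gel over Normoxic, and that of all genes was 0.01, -0.01 and 0.00. The 3 comparisons share libraries, and these contrasts chose the genes, so the counts are no evidence for them.

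**Figure D1:**
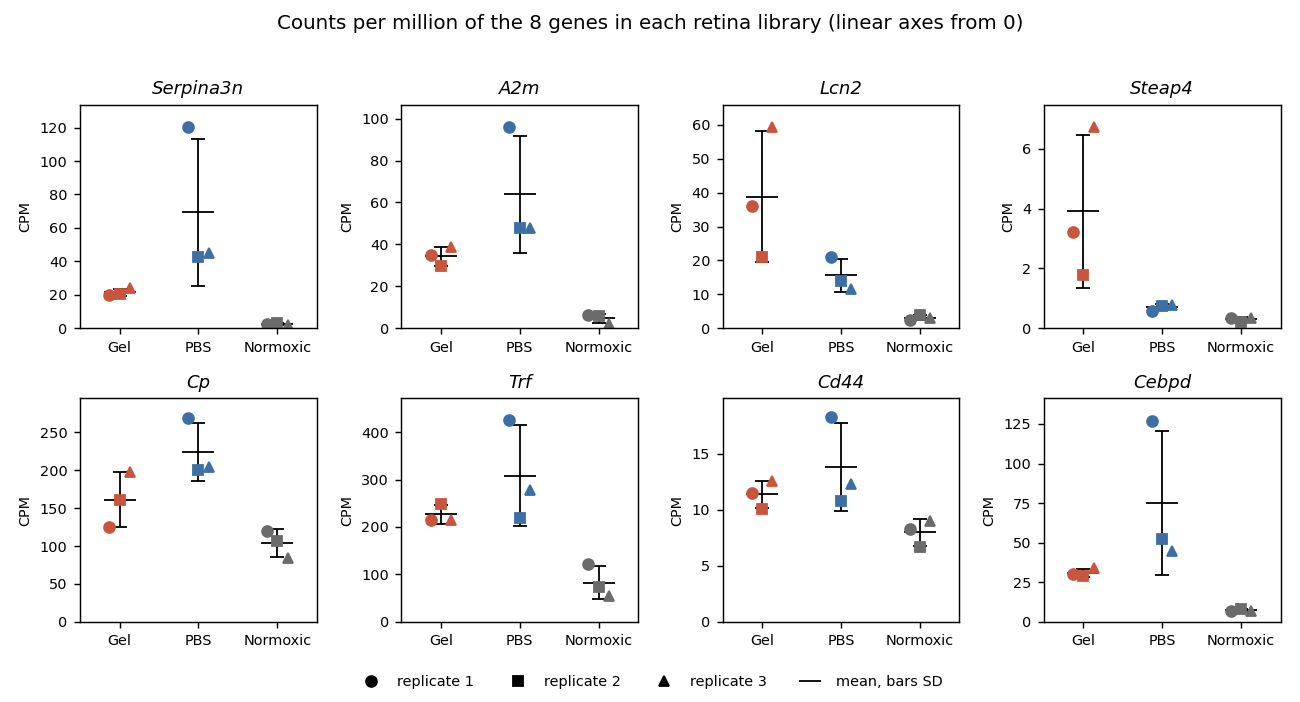
CPM of each gene in each library, with Gel, PBS and Normoxic from left to right, replicate numbers as symbols, and the mean with SD bars (n = 3). The other 6 genes have a lower mean in Gel than in PBS, Lcn2 and Steap4 have a higher one, and PBS 1 tops its group for all but Steap4.

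The secreted protease inhibitors had the largest PBS levels relative to Normoxic. Serpina3n (Entrez 20716), a serine protease inhibitor of the antichymotrypsin family and a common marker of reactive astrocytes, stood at 19.9, 20.2 and 23.9 CPM in Gel, 120.2, 42.7 and 45.2 CPM in PBS, and 2.32, 3.01 and 1.89 CPM in Normoxic. The 3 groups did not overlap, and PBS 1 was far above the other PBS libraries. The fitted fold was 28.9 in PBS over Normoxic (log2 4.85 ± 0.41, SE), 8.89 in Gel over Normoxic (3.15 ± 0.39) and 0.308 in Gel over PBS (-1.70 ± 0.34). Without PBS 1 the log2 value was 4.20 in PBS over Normoxic and -1.05 in Gel over PBS. The excess of the Gel mean over Normoxic was 28.3% of that of the PBS mean, and 45.6% of it without PBS 1.

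A2m (Entrez 232345) encodes alpha-2-macroglobulin, which traps proteases of many classes. Its level was 35.1, 29.6 and 38.5 CPM in Gel, 95.9, 47.8 and 47.8 CPM in PBS, and 6.31, 5.63 and 2.16 CPM in Normoxic. The groups again did not overlap, and PBS 1 was the high library. A2m was 13.7-fold higher in PBS than in Normoxic (log2 3.78 ± 0.38) and 7.38-fold higher in Gel than in Normoxic (2.88 ± 0.37). Gel over PBS was 0.539 (-0.89 ± 0.33), and the Gel excess over Normoxic was 50.2% of the PBS excess. Without PBS 1 the log2 value of Gel over PBS was -0.48, and the share of the excess was 68.9%. Serpina3n has close paralogues in its gene cluster, among which reads could be split. Of 7 in the table, only Serpina3g passed the count filter, at 1.36 ± 0.339 CPM in Gel, 1.70 ± 0.825 CPM in PBS and 1.42 ± 0.698 CPM in the 3 Normoxic libraries (mean ± SD). It was not called in any comparison (edgeR adjusted p from 0.738 to 0.987).

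Lcn2 and Steap4 were the 2 genes with a higher mean in Gel than in PBS. Lcn2 (Entrez 16819) encodes lipocalin 2, a secreted protein that binds iron-carrying siderophores of bacteria. It stood at 36.1, 21.0 and 59.4 CPM in Gel, 21.1, 14.0 and 11.6 CPM in PBS, and 2.52, 3.81 and 2.97 CPM in Normoxic. Gel 2 lay just under PBS 1, so Gel and PBS overlapped, while Normoxic was below both. Lcn2 was 2.49-fold higher in Gel than in PBS (log2 1.31 ± 0.33), 12.5-fold higher in Gel than in Normoxic (3.64 ± 0.37) and 5.03-fold higher in PBS than in Normoxic (2.33 ± 0.36). Leaving out Gel 3 lowered the log2 value in Gel over PBS to 0.88.

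Steap4 (Entrez 117167) encodes a membrane metalloreductase that reduces iron and copper. It was the least abundant of the genes, with 96, 63 and 227 counts in Gel, 18, 22 and 28 counts in PBS, and 10, 7 and 10 counts in Normoxic. These counts amount to 3.23, 1.77 and 6.73 CPM in Gel, 0.573, 0.750 and 0.788 CPM in PBS, and 0.341, 0.215 and 0.327 CPM in Normoxic. The 3 groups did not overlap, and Gel 3 was the high library, as it was for Lcn2. Groups without overlap and with Gel above PBS were seen for 2.73% of all tested genes. Steap4 was 5.49-fold higher in Gel than in PBS (log2 2.46 ± 0.46) and 13.2-fold higher in Gel than in Normoxic (3.72 ± 0.51). Without Gel 3 these log2 values were 1.83 and 3.09. PBS over Normoxic was 2.41 (log2 1.27 ± 0.53), the one PBS difference from Normoxic among the 8 that edgeR did not call. Of the other family members, Steap2 did not share the pattern of means. It was at 40.5 ± 1.39 CPM in Gel, 40.6 ± 2.84 CPM in PBS and 49.5 ± 0.419 CPM in Normoxic. Steap1, Steap2 and Steap3 were not called in any comparison (edgeR adjusted p from 0.0957 to 0.999).

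**Figure D2:**
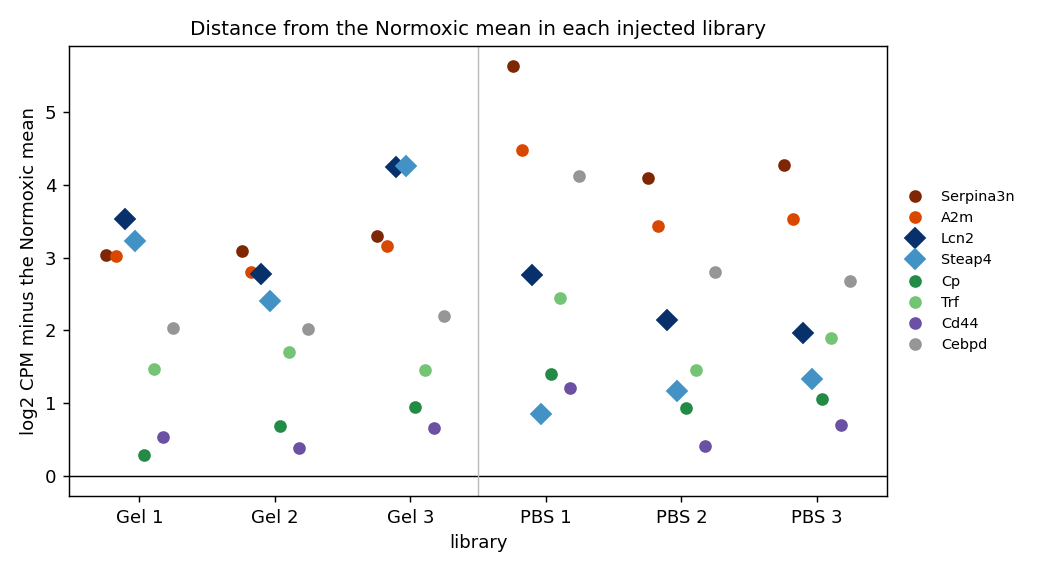
Log2 CPM minus the Normoxic mean (prior count 2) of each gene in the 6 injected libraries, with Gel left of PBS, circles for 6 genes and diamonds for Lcn2 and Steap4. In Gel 1 and Gel 3 both diamonds lie above all circles, and in each PBS library they lie below Serpina3n, A2m and Cebpd.

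The copper and iron proteins Cp and Trf were abundant in all libraries. Cp (Entrez 12870) encodes ceruloplasmin, a copper protein that oxidises iron as it leaves cells, and its loss is known to cause iron build-up in the retina. It stood at 125, 161 and 198 CPM in Gel, 269, 200.1 and 204 CPM in PBS, and 120.0, 107 and 83.6 CPM in Normoxic. Every PBS library was above every Gel library, by a small margin, and Gel 1 was close to Normoxic 1. Gel over PBS was 0.719 (log2 -0.48 ± 0.19), PBS over Normoxic 2.19 (1.13 ± 0.19) and Gel over Normoxic 1.57 (0.65 ± 0.19). The log2 value of Gel over PBS was -0.33 without PBS 1 and -0.32 without Gel 1.

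Trf (Entrez 22041) encodes transferrin, the iron carrier of plasma, which the retina and its pigment epithelium also make. Its level was 215, 249 and 216 CPM in Gel, 426, 219 and 279 CPM in PBS, and 122, 72.8 and 53.7 CPM in Normoxic. Gel and PBS overlapped, and Normoxic was below both. PBS over Normoxic was 3.76 (log2 1.91 ± 0.30), Gel over Normoxic 2.77 (1.47 ± 0.29) and Gel over PBS 0.736 (-0.44 ± 0.29). Without PBS 1 the log2 value was 1.61 in PBS over Normoxic and -0.14 in Gel over PBS.

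Cd44 (Entrez 12505), the cell surface receptor for hyaluronan, differed least. It stood at 11.5, 10.1 and 12.5 CPM in Gel, 18.2, 10.8 and 12.3 CPM in PBS, and 8.29, 6.68 and 8.95 CPM in Normoxic. Gel and PBS overlapped almost wholly apart from PBS 1. PBS over Normoxic was 1.74 (log2 0.80 ± 0.20), Gel over Normoxic 1.43 (0.52 ± 0.20) and Gel over PBS 0.824 (-0.28 ± 0.20). Without PBS 1 the Gel over PBS value was -0.03 on the log2 scale.

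Cebpd (Entrez 12609) encodes C/EBP delta, a transcription factor known to be induced by interleukin 6 family cytokines and interleukin 1 and to drive acute phase genes. It stood at 29.9, 29.0 and 33.8 CPM in Gel, 127, 52.4 and 45.02 CPM in PBS, and 6.85, 8.06 and 6.96 CPM in Normoxic. The groups did not overlap, the Gel and Normoxic libraries were tight, and PBS 1 was again far above the other PBS libraries. PBS over Normoxic was 10.3 (log2 3.36 ± 0.34), Gel over Normoxic 4.26 (2.09 ± 0.33) and Gel over PBS 0.414 (-1.27 ± 0.31). Without PBS 1 the log2 values were 2.75 in PBS over Normoxic and -0.66 in Gel over PBS. Its Gel excess over Normoxic was 34.9% of the PBS excess, and 57.0% of it without PBS 1. In Gel versus PBS, 4 of the 8 genes (Serpina3n, A2m, Cp and Cebpd) were lower without overlap, as were 5.15% of all tested genes.

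The order of the genes by level per length differed between groups. Levels between genes are given in FPKM (fragments scaled to transcript length and library total), as mean ± SD over 3 libraries. In Gel, Trf led at 97.2 ± 8.38 FPKM, then came Lcn2 at 45.5 ± 22.7, Cp at 22.6 ± 5.09, Cebpd at 13.7 ± 1.13, Serpina3n at 9.58 ± 1.01, A2m at 5.33 ± 0.702, Cd44 at 1.98 ± 0.212 and Steap4 at 1.25 ± 0.813. The library ranges of Lcn2 and Cp overlapped, as did those of Cd44 and Steap4. In PBS, Trf was at 132 ± 45.7 FPKM, and Cebpd (33.1 ± 20.1), Cp (31.4 ± 5.41) and Serpina3n (31.1 ± 19.8) overlapped, followed by Lcn2 at 18.3 ± 5.79, A2m at 9.89 ± 4.30, Cd44 at 2.40 ± 0.683 and Steap4 at 0.224 ± 0.0364. In Normoxic, Trf (35.5 ± 15.1 FPKM) and Cp (14.5 ± 2.57) were ahead of Lcn2 (3.64 ± 0.769) and Cebpd (3.23 ± 0.296), which overlapped. Cd44 (1.39 ± 0.204) overlapped Serpina3n (1.08 ± 0.254), which overlapped A2m (0.728 ± 0.345), and Steap4 was at 0.0937 ± 0.0219. By mean, Lcn2 ranked above Serpina3n in Gel and Normoxic and below it in PBS. In PBS the library range of Lcn2 (13.6 to 24.8 FPKM) overlapped those of Serpina3n (from 19.2), Cebpd (from 19.9) and A2m (up to 14.9).

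Ratios taken within a library do not depend on its total. The FPKM ratio of Lcn2 to Serpina3n was 4.74, 2.71 and 6.49 in Gel, 0.459, 0.859 and 0.672 in PBS, and 2.84, 3.31 and 4.10 in Normoxic. Gel and Normoxic overlapped, and every PBS library lay below both. The ratio of Steap4 to Serpina3n was 0.116, 0.0619 and 0.200 in Gel, 0.00339, 0.0125 and 0.0124 in PBS, and 0.104, 0.0507 and 0.122 in Normoxic, which is the same arrangement. The ratio of Cebpd to Serpina3n was 1.48, 1.41 and 1.39 in Gel, 1.04, 1.21 and 0.982 in PBS, and 2.92, 2.64 and 3.62 in Normoxic. This ratio moved less among the 6 injected libraries than those of Lcn2 and Steap4. Every PBS library lay below every Gel and Normoxic library for A2m, Cp, Trf, Cd44 and Cebpd as well. For A2m the ratio was up to 0.386 in PBS, from 0.504 in Gel and from 0.393 in Normoxic, so Gel and Normoxic overlapped there too. The low place of PBS is therefore not particular to Lcn2 and Steap4. Serpina3n, the denominator, had the largest fold in PBS over Normoxic of the 8 genes.

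**Figure D3:**
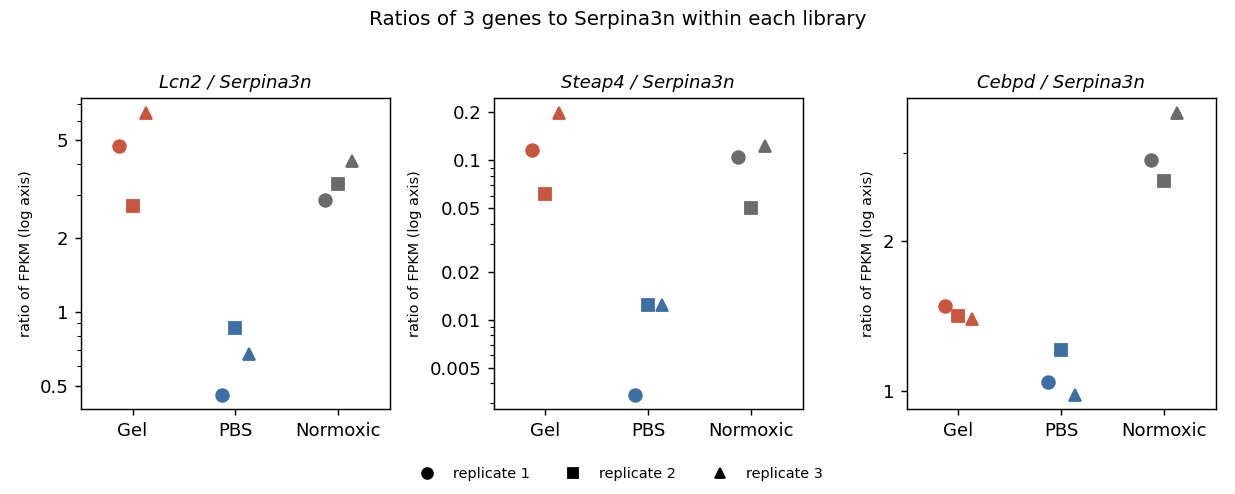
Ratio of the FPKM of Lcn2, Steap4 and Cebpd to that of Serpina3n in each library, on log axes, with Gel, PBS and Normoxic from left to right and symbols for replicates. In every panel the PBS libraries lie below all Gel and Normoxic libraries. Gel and Normoxic overlap for Lcn2 and Steap4, and for Cebpd the Gel libraries lie between PBS and Normoxic.

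The genes whose levels ran closest to each of the 8 over the injected libraries were named by the smallest root mean square difference, over 6 libraries, of log2 CPM less the Normoxic mean, among 13460 genes. Serpina3n was nearest to Lad1 (0.39), an anchoring filament protein, to Fgf2os (0.51), an RNA antisense to Fgf2, and to the complement gene C4b (0.63), whose reads may include those of C4a. No source used here gives the strand of the reads, so Fgf2os and Fgf2 cannot be told apart. The genes near A2m included Ndufa4l2 (0.37), a hypoxia-induced mitochondrial protein, and Gfap (0.57), the filament of reactive glia. Lcn2 was nearest to C3 (0.55), the central complement component, then to Tgfbi (0.87) and Steap4 (0.93). C3 also had a higher mean in Gel than in PBS, at 11.05 ± 2.02 CPM in Gel, 6.68 ± 1.88 CPM in PBS and 1.42 ± 0.294 CPM in Normoxic. Steap4 was nearest to Rpe65 (0.88), an enzyme of the pigment epithelium, Il20rb (0.92) and Lcn2 (0.93). Cp, Trf, Cd44 and Cebpd had neighbours at 0.13, 0.22, 0.09 and 0.28 (Ifih1, Litaf, Tirap and H19), so Lcn2 and Steap4 had the most distant nearest genes of the 8, with C3 and Rpe65.

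Signalling genes above the acute phase response were read from lists that hold none of the 8. All lists used here were written with earlier results of these data known, so their counts are a description. Over all tested genes 4.31% were called higher in PBS versus Normoxic and 1.12% in Gel versus Normoxic. These shares stand beside the count of every list below. Of 17 tested genes of gp130 and STAT3 signalling, 4 rose in PBS versus Normoxic, 0 fell, and the list median was 0.29 on the log2 scale. Osmr, the oncostatin M receptor, was at 13.3 ± 0.805 CPM in Gel, 19.2 ± 6.58 CPM in PBS and 5.47 ± 1.04 CPM in Normoxic, and rose in PBS (edgeR adjusted p = 0.0013) and in Gel (0.0207) against Normoxic. Stat3 was at 123 ± 14.4 CPM in Gel, 164 ± 59.0 CPM in PBS and 75.6 ± 2.39 CPM in Normoxic, and rose in PBS (edgeR adjusted p = 0.00859, 0.0506 without Normoxic 2). Socs3, which limits STAT3 signalling, rose in PBS (log2 2.15 ± 0.43, edgeR adjusted p = 0.0145, up to 0.0756 without any 1 Normoxic library), and so did Bcl3, an NF-kB cofactor (4.25 ± 0.71, edgeR adjusted p = 0.00608, 0.0822 with limma-voom). The ligand Lif was at 0.882 ± 0.388 CPM in Gel, 1.95 ± 2.17 CPM in PBS and 0.235 ± 0.0886 CPM in Normoxic and did not pass (edgeR adjusted p = 0.0564 in PBS versus Normoxic). In Gel versus Normoxic, Osmr was the 1 of these 17 called, and without Gel 2, Gel 3 or any 1 Normoxic library it was not called (up to 0.103), while without PBS 1 the count was 2 and without PBS 3 it was 3.

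Of 5 other tested C/EBP genes, Cebpa (log2 1.24 ± 0.32), Cebpb (1.22 ± 0.28) and Ddit3 (0.72 ± 0.14) rose in PBS versus Normoxic, with edgeR adjusted p of 0.0447, 0.0257 and 0.0134. Only Ddit3 was called in Gel versus Normoxic (edgeR adjusted p = 0.0466). The call of Cebpa ended without any 1 library but Normoxic 3, that of Cebpb without PBS 1, Normoxic 1 or Normoxic 3 or with the length trend removed, and that of Ddit3 in PBS without Normoxic 1 or 2. In Gel the call of Ddit3 ended without Gel 1, Gel 2, PBS 1, PBS 2 or any 1 Normoxic library, and with limma-voom.

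Of 12 tested genes of interleukin 1, interleukin 17, TNF and NF-kB, 4 rose in PBS versus Normoxic and 2 in Gel versus Normoxic. The TNF receptor Tnfrsf1a was at 19.1 ± 0.840 CPM in Gel, 28.3 ± 6.87 CPM in PBS and 9.42 ± 0.302 CPM in Normoxic, and rose in both (edgeR adjusted p = 0.00051 in PBS and 0.0103 in Gel). Tnfrsf1b rose in both as well, and Nfkbia and Relb rose in PBS (log2 0.70 ± 0.14 and 0.76 ± 0.19). Nfkbiz, a nuclear NF-kB cofactor known to be needed for Lcn2 induction in mouse macrophages, was at 14.4 ± 0.964 CPM in Gel, 13.6 ± 3.61 CPM in PBS and 12.8 ± 0.0852 CPM in Normoxic and was not called (edgeR adjusted p from 0.702 to 0.987). The Relb call ended without any 1 library but Gel 1, with no filter and with only the 2 groups compared, the Nfkbia call without any 1 Normoxic library, and the Gel calls of both receptors without Gel 2 or any 1 Normoxic library, among others.

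Receptors and partners of the 8 proteins mostly did not pass, as most tested genes did not (6.34% called in PBS versus Normoxic, 1.41% in Gel versus Normoxic). Slc22a17 and Lrp2, receptors of lipocalin 2, had means of 352 ± 13.02 and 32.5 ± 5.21 CPM in Gel, 341 ± 15.02 and 28.3 ± 7.29 CPM in PBS, and 409 ± 20.7 and 40.2 ± 1.49 CPM in Normoxic (edgeR adjusted p of at least 0.109). The alpha-2-macroglobulin receptor Lrp1 did not pass either, while Cd109, a relative of A2m, rose in PBS (log2 3.19 ± 0.50, edgeR adjusted p = 0.0043) and in Gel (2.44 ± 0.50, 0.043, up to 0.199 without Gel 2, Gel 3, PBS 2, Normoxic 1 or Normoxic 2) against Normoxic. Of 22 other tested iron handling genes, 1 was called, Hmox1, which breaks down heme, higher in PBS versus Normoxic, and none was called in Gel versus Normoxic. Without PBS 1 the counts were 2 in PBS and 2 in Gel, without PBS 2 they were 3 and 1, and without PBS 3 they were 1 and 2. The transferrin receptor Tfrc was at 75.6 ± 15.9 CPM in Gel, 71.1 ± 3.67 CPM in PBS and 87.1 ± 9.81 CPM in Normoxic, and the iron exporter Slc40a1, Cp's partner, at 8.11 ± 0.725, 7.82 ± 1.78 and 5.78 ± 0.858 CPM in the same groups. Of 13 hyaluronan and CD44 partner genes, Msn (log2 1.49 ± 0.15), Ezr (0.80 ± 0.17) and Hmmr (5.17 ± 0.95) rose in PBS versus Normoxic, and Msn, which links CD44 to actin, rose in Gel versus Normoxic (0.87 ± 0.15, edgeR adjusted p = 0.0212). The Msn call in Gel ended without Gel 2, Gel 3 or any 1 Normoxic library (up to 0.125), the Ezr call without any 1 Normoxic library, and the Hmmr call without Normoxic 2 or 3.

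Most liver-type acute phase genes were near 0. Of 24 plasma acute phase genes listed in the table, 16 were below the count filter, none of them above 0.382 CPM in any library, among them the serum amyloids Saa1, Saa2 and Saa3, haptoglobin (Hp) and albumin (Alb). Of the 8 tested, C3, C4b and Serping1, all of the complement system, rose in PBS and in Gel against Normoxic. The Serping1 call in Gel ended without any 1 Gel or Normoxic library (edgeR adjusted p from 0.0359 up to 0.133). The table's own annotation lists Serpina3n alone of the 8 genes under acute-phase response, with 21 other genes. Of the 8 of those that were tested, Cd163, Fn1 and Stat3 were called higher in PBS versus Normoxic, and 0 were called in Gel versus Normoxic. Cd163 was scarce, with 7, 17 and 29 counts in PBS and 1, 0 and 1 counts in Normoxic. Without Normoxic 2 the 3 calls in PBS were 0 and without Normoxic 1 they were 1, and the 0 in Gel were 1 without PBS 1 and 2 without PBS 3.

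Genes of reactive astrocyte signatures described in mouse brain rose in PBS in part. Of 8 pan-reactive genes 4 rose in PBS versus Normoxic (Gfap, Vim, Timp1 and Osmr), of 11 genes tied to inflammation (A1) 6, and of 11 tied to ischaemia (A2) 5, with list medians of 1.57, 1.16 and 1.39. In Gel versus Normoxic 2, 3 and 2 were called, with medians of 1.02, 0.84 and 0.85. These Gel counts rest on single libraries: without Normoxic 1 or Normoxic 2 they were 1, 1 and 0, and without Gel 2 they were 1 each. Without Gel 3 or Normoxic 3 the pan-reactive and A2 counts were 1 each. Gfap was at 106 ± 16.9 CPM in Gel, 265 ± 88.9 CPM in PBS and 21.7 ± 5.18 CPM in Normoxic, and was called against Normoxic in both (edgeR adjusted p = 0.000132 in PBS and 0.00187 in Gel). No gene in any of these lists was called lower against Normoxic, and none was called in Gel versus PBS, by edgeR with all libraries. Some called genes were counted in more than 1 list, so the list counts are not separate. Osmr was also counted under gp130 and STAT3 signalling, and Stat3 both there and under acute-phase response.

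Markers of the cells that could supply these RNAs were summed in each library. The 10 Müller glia markers summed to 5368 to 6862 CPM in Gel, 4780 to 6456 CPM in PBS and 5847 to 6291 CPM in Normoxic, with 3 of 10 called lower in PBS versus Normoxic, and 1 without Normoxic 2 or Normoxic 3. The 6 retinal astrocyte markers summed to 123 to 166 CPM in Gel, 167 to 218 CPM in PBS and 99.1 to 111 CPM in Normoxic, with 3 of 6 called higher in PBS versus Normoxic. The 10 pericyte and smooth muscle markers summed to 226 to 291 CPM in Gel, 317 to 453 CPM in PBS and 139 to 166 CPM in Normoxic. The sums of both lists therefore ran in the same order as Serpina3n and Cebpd, with Gel between PBS and Normoxic. Cd9 and Rgs5 were the largest members of these sums. By mean, Pax2, S100b, Abcc9 and Myh11 did not run in that order, and the other genes of the 2 lists did. The part of these cells in the differences of Serpina3n and Cebpd was not tested.

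Lcn2 is also a product of neutrophils, and Trf of the pigment epithelium. The 9 neutrophil markers listed in the table summed to 0 to 0.237 CPM in Gel, 0.159 to 0.703 CPM in PBS and 0 to 0.154 CPM in Normoxic, and 5 of 9 had 0 counts in all Gel libraries. Their part in the Lcn2 differences was not tested. The 8 pigment epithelium markers summed to 175, 225 and 146 CPM in Gel, 64.7, 66.2 and 232 CPM in PBS, and 108, 53.0 and 32.1 CPM in Normoxic. None of the 8 markers was called in any comparison by edgeR with all libraries, and without PBS 3, 3 of 8 were called higher in Gel versus Normoxic. Their part in the differences of Trf, Steap4 and Lcn2 was not tested. The 8 oligodendrocyte markers summed to 66.2 to 81.1 CPM in Gel, 79.4 to 94.1 CPM in PBS and 66.1 to 74.5 CPM in Normoxic. Of the 5 tested, 1 was called higher in PBS versus Normoxic, and 0 without Gel 3, PBS 3 or any 1 Normoxic library. The part of oligodendrocytes in the Trf differences was not tested either. Microglia markers summed to 112 to 148 CPM in Gel, 143 to 220 CPM in PBS and 61.9 to 68.8 CPM in Normoxic, with 6 of 9 called higher in PBS and 5 of 9 in Gel against Normoxic. The 5 in Gel became 1 without Gel 2, Normoxic 1 or Normoxic 2, and 2 without Gel 3 or Normoxic 3. The part of microglia was not tested.

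**Figure D4:**
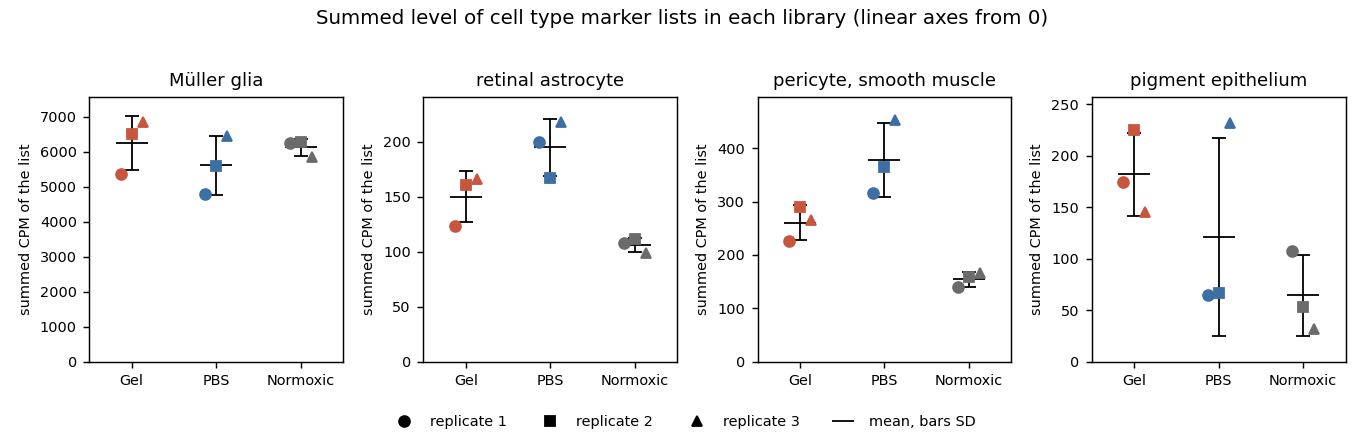
Summed CPM of 4 marker lists in each library, with Gel, PBS and Normoxic from left to right, replicates as symbols and the mean with SD bars (n = 3). Astrocyte and mural cell sums are lower in Gel than in PBS and higher than in Normoxic, Müller glia sums overlap, and the pigment epithelium sum of PBS 3 is as high as those of Gel.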

How the data were processed

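Bulk retina RNA from 9 libraries was analysed, 3 each of Gel, PBS and Normoxic, all with 1 batch date in the labels. The authors deposited whole-number counts and FPKM per gene. The submitters' processing notes name Bowtie2, RSEM 1.3.1, DESeq2 1.4.5 and build GRCm39, without their roles. The deposited FPKM equal count over library total over 1 length per gene, and were used only to compare levels between genes. Reads shared by paralogues may be split by the counting.

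Counts were fitted with edgeR 4.0.16 (R 4.3.3; TMM, quasi-likelihood F test, all 9 libraries, group as the only term). The filter (filterByExpr, minimum count 10) kept 17362 of 26683 genes, 65.1%, and p-values were adjusted by the Benjamini-Hochberg method over all of them, with 0.05 as threshold. A standard error is the log2 fold change over the square root of F. Alternatives were other size factors, no filter, DESeq2 1.42.0, limma-voom (limma 3.58.1), a replicate block, 2-group fits, a length trend removed, and each library left out. The fit was tested on simulated data. Log2 CPM used a prior count of 2.

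The 8 genes and all lists were chosen with earlier results of these data known. Genes named from lists were those called, or ligands, receptors or partners of the 8, up to 6 per list; likeness took the 3 nearest genes averaging 1 CPM or more, of which 1 is not reported here. Nfkbiz was named after its values were seen, and the acute-phase annotation list, the shares of excess without PBS 1 and the marker counts with 1 library left out were added after seeing the data. Promoter sequences are from RefSeq.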

Additional observations from a re-analysis of the deposited data

How the results depend on the processing

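No log2 fold change of the 8 genes reversed under any alternative run. Against edgeR's 1101 calls in PBS versus Normoxic, DESeq2 gave 1936, and leaving out 1 library gave 455 (without Normoxic 2) to 1184 (without PBS 2). Of calls in Gel versus PBS edgeR gave 0, no filter 24, DESeq2 64, a removed length trend 3, and leaving out 1 library 0 to 12 (without PBS 2). Of calls in Gel versus Normoxic edgeR gave 245, no filter 389, DESeq2 854, only the 2 groups compared 643, a removed length trend 431, and leaving out 1 library 47 (without Normoxic 2) to 735 (without PBS 3). The share of calls that were higher ran from 60.1% to 82.0% in PBS versus Normoxic (67.9% in the reported fit) and from 65.7% to 93.6% in Gel versus Normoxic (79.6%). The cause was not tested. Of the 128 alternative values of the 8 genes in each comparison, 8 lost a call in PBS versus Normoxic and 10 in Gel versus Normoxic, while 6 gained a call for Gel over PBS and 1 for Gel over Normoxic.

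With the replicate number as a block, calls in PBS versus Normoxic were 1050, calls in Gel versus PBS were 0, and calls in Gel versus Normoxic were 227. The block ended the calls of Relb in PBS versus Normoxic and of Ddit3 in Gel versus Normoxic, and no other call of the 8 genes or the listed genes. Deviations of same-numbered libraries correlated at -0.07, -0.06 and -0.05 in PBS versus Normoxic and at -0.08, -0.04 and -0.10 in Gel versus Normoxic. In Gel versus PBS they correlated at 0.33, -0.21 and 0.36, and pairs with different numbers at -0.51 to 0.31. So few pairs cannot decide whether same-numbered samples share an origin, and the labels do not say. Steap4, with 7 to 28 counts in each PBS and Normoxic library, is the gene most limited by depth.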

Other observations

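The nearest genes depended on PBS 1 for some of the 8. When that library was left out, an alternative chosen after seeing the data, 1 of the 3 nearest genes of Serpina3n and of Cd44 and 0 of the 3 of Trf were the same, against 2 or 3 for the other 5 genes.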
